A study of Mus musculus with 6 samples.

Results

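The genes described are the histone genes of the mouse, the genes for the proteins that DNA is wound on in the nucleus. They were chosen by symbol: a gene belongs if it is annotated as protein-coding in the GENCODE M21 annotation and its symbol begins with Hist1h to Hist4h, H2af, H3f3 or H1f. Of 91 genes with such a symbol 82 are protein-coding, and 80 of these have a row in the deposited files, out of 52870 rows used. The levels of Hist1h2bm and Hist1h2bh were not analysed here, but both enter the promoter counts. No measured value enters the symbol rule, but the group was proposed with earlier results of the same comparison known, so counts over it are a description and are read beside the share of all genes that gave the same call. 65 of the 80 are clustered genes (Hist symbols): 6 for H1, 18 for H2A, 16 for H2B, 12 for H3 and 13 for H4. The other 15 are replacement genes (H1f, H2af and H3f3 symbols): 4 for H1, 9 for H2A and 2 for H3.

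RNA was sequenced from 6 libraries of mouse embryonic stem cells of the C57BL/6 strain. The 3 control libraries have the genotype Rbbp4F/F, in which the gene Rbbp4 carries the allele written F, and the 3 knockout libraries have the genotype Rbbp4-/-. The labels name no agent, Cre driver, time after deletion or clone, and leave unsaid if replicates are separate cultures. The p-values therefore measure the spread between these libraries, which may be technical. Rbbp4 encodes a histone-binding protein found in several chromatin complexes, among them the chaperone CAF-1, which places H3 and H4 on newly copied DNA.

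Histone genes fall into 2 kinds. Clustered genes lie side by side at a few loci, have no introns or few, and are transcribed mainly while DNA is copied; their messenger RNA (mRNA) normally ends in a short stem-loop bound by the protein SLBP and not in a poly(A) tail. Replacement genes mostly lie singly, many with introns, usually have poly(A) tails, and are used in and outside of DNA copying. H3.3, H2A.Z, H2A.X, macroH2A and H1.0 are of this kind. The genes for H2A.X and H1.0 are annotated with 1 exon each. Some clustered genes can also give longer, polyadenylated transcripts, which is known above all in differentiating or non-dividing cells.

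The stem-loop that marks the end of clustered histone mRNA was found in an annotated transcript of 44 of the 65 clustered genes, as 8 distinct sequences of 16 bases. It is shown for members that carry the results below, from the GENCODE M21 transcripts, 5′ to 3′, with the stem-loop in capitals and up to 6 transcript bases on each side in lower case.

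Hist1h1c: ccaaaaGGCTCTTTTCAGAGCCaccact

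Hist1h2ac: cccaaaGGCTCTTTTCAGAGCCcccact

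Hist3h2ba: cccaaaGGCTCTTTTCAGAGCCaccttc

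Hist1h3g: tttaaaGGCTCTTCTTAGAGCCacccat

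Hist1h4i: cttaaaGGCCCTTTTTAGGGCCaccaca

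Hist1h4m: actaaaGGCCCTTTTCAGGGCCatc

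H2afx: cacaaaGGCCCTTTTAAGGGCCaccacc

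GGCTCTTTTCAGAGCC was the form in 3 H1, 10 H2A, 6 H2B and 5 H3 genes, and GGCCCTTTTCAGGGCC the form in 7 H4 genes. Among the replacement genes H2afx also held one, 822 bases before the end of its transcript. The annotated transcript of Hist1h2bc, which had the largest FPKM of the clustered genes in the knockout, held none: it is 1156 bases long and made of 2 exons that span chr13:23684199-23692908.

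Promoter sequence was taken from RefSeq (GRCm38.p6). All 82 protein-coding genes matched a RefSeq gene and 76 had a promoter of 300 bases. The 150 bases before the start are shown for a pair of H3.3 genes that moved in opposite directions and for a pair of clustered genes, on the gene's strand, with 3 motifs of histone promoters in capitals on either strand: CCAAT, the TATA box spelled TATAAA, and the octamer ATTTGCAT.

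H3f3a (chr1:180813606-180813755, minus strand): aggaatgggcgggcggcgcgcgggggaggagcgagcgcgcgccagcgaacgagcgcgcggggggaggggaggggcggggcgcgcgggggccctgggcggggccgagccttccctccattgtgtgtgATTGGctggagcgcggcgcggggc

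H3f3b (chr11:116024505-116024654, minus strand): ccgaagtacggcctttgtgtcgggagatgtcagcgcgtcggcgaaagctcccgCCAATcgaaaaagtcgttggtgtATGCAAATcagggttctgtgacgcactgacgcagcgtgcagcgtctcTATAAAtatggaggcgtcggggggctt

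Hist1h1c (chr13:23738657-23738806, plus strand): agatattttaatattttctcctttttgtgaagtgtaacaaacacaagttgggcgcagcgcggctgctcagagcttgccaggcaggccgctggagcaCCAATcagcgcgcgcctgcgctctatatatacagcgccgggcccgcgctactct

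Hist1h4i (chr13:22041363-22041512, minus strand): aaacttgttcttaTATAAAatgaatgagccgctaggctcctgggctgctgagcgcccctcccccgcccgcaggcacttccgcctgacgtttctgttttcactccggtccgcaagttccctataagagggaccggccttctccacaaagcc

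CCAAT was in 85.5% of the 62 clustered promoters and 71.4% of the 14 replacement promoters, against 37.9% of all 27025 promoters of the same length. All clustered H1, H2A, H2B and H3 promoters held it, and 3 of 12 H4 promoters. TATAAA was in 56.5% of clustered promoters, 7.14% of replacement promoters and 14.2% of all. The octamer ATTTGCAT was in 21% of clustered promoters, namely 7 of 18 for H2A and 6 of 16 for H2B, with none for H1, H3 and H4, against 1.75% of all. H3f3b was the 1 replacement gene with TATAAA and the 1 with the octamer (ATGCAAAT, read on the other strand), and it held CCAAT too, whereas H3f3a held CCAAT alone. The stretches shown for H3f3a and H3f3b both lie inside the gene as GENCODE M21 draws it, whose annotated start is further out. These are matches of letters and say nothing of which factor binds.

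Levels are in FPKM, a fragment number divided by transcript length and by library size, a unit that allows levels of different genes to be set side by side. Fold changes are differences of log2(FPKM + 1), knockout minus control, and SE is their standard error. On this scale the change of a gene with low FPKM is understated. A gene was tested if it reached 1 FPKM in at least 3 of the 6 libraries, and called if its limma adjusted p (Benjamini-Hochberg over all 13579 tested genes) was under 0.05. Of all tested genes 36.7% were called higher in the knockout and 22.5% lower. In 41.3% of the tested genes the lowest knockout value exceeded the highest control value, and in 25.5% the reverse held. The median fold change of all tested genes was 0.17, and with median-ratio scaling it was −0.01 and the calls split into 3838 higher and 3992 lower in place of 4978 and 3051. From the steps between low values a library holds about 25500000 to 28600000 fragments, so 1 fragment is worth 0.255 to 0.307 FPKM on a transcript of 400 bases and 0.0475 to 0.054 on one of 1000 bases. Low values of short histone genes thus rest on a few fragments each.

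Rbbp4 itself stood at 58.5, 57 and 61.8 FPKM in the control libraries and at 21.3, 12.7 and 11.1 in the knockout libraries, a fold change of −1.96 (limma adjusted p = 0.000394, SE 0.22). The groups did not overlap, and the remaining signal in the knockout was highest in replicate 1. Of 8 embryonic stem cell markers 7 were called lower and none at 0: their summed level was 4705 to 4855 FPKM in the control and 1390 to 2175 in the knockout. Of 8 trophoblast markers 6 were called higher (sum 74.8 to 104.5 against 1159 to 2022), most of that sum from Krt18, and of 6 germ cell markers 4 were called higher and 1 lower (12.4 to 13.4 against 45.5 to 62.4). Of 7 primitive endoderm markers 2 were called higher (Gata4 and Dab2) and 1 lower (Lama1), and 4 reached 1 FPKM in any library. Their sum (25.5 to 26.5 FPKM against 11.6 to 14.2) followed Lama1, whose mean was 23.1 against 3.65, while Gata4 had 0.58 against 3.31. Of 9 feeder fibroblast markers, Thy1 and Acta2 alone reached 1 FPKM in any library (sum of all 9, 16.1 to 23.6 against 16.2 to 27.2), with Postn and Lum at 0 in the control mean. Thy1 was called lower (mean 14.8 against 7.68 FPKM) and Acta2 higher (3.01 against 12.9). The part of this shift in the histone results was not tested. In bulk RNA a change in the number of cells of a type and a change in RNA per cell cannot be told apart.

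In FPKM as deposited, the summed level of the clustered genes was higher in the knockout, and that of the replacement genes was nearly equal. Summed over all 65 clustered genes, the level was 194.6, 190.1 and 152.8 FPKM in the control libraries and 1201, 1093 and 1081 in the knockout libraries, a 6.28-fold ratio of the means. Summed over all 15 replacement genes it was 2430, 2471 and 2361 against 2369, 2471 and 2418, a ratio of 0.9995. The knockout libraries thus lay above the controls for the clustered sum and among them for the replacement sum. The direction of the replacement sum depended on the scaling. Its log2 ratio was −0.19 under median-ratio, −0.16 under upper-quartile and 0.16 under equal-sum scaling. Clustered genes held 6.88% ± 0.71 (SD, n = 3) of all histone FPKM in the control and 31.7% ± 1.66 (SD, n = 3) in the knockout. These sums carry no test. Since FPKM divides by each gene's own length, they still depend in part on how reads of near-identical copies were divided. The labels do not say whether poly(A) RNA was selected, so clustered and replacement mRNA may not have been captured alike. In estimated fragments per library size, over the 60 clustered genes with 1 annotated transcript, the ratio was 11.2-fold, a measure chosen after the data were seen.

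**Figure D1:**
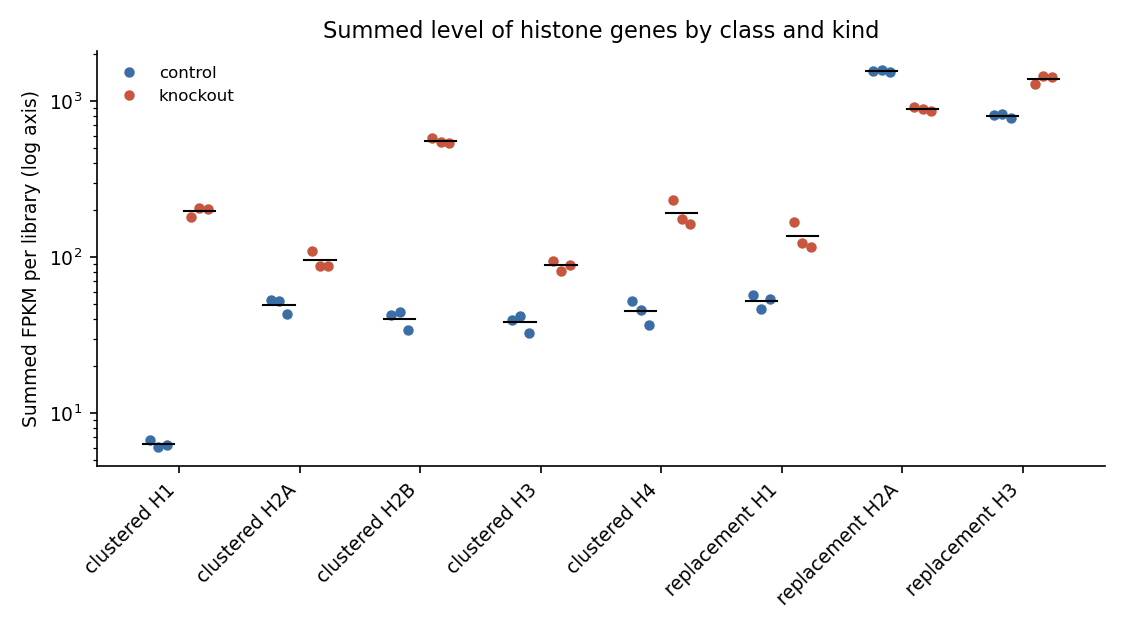
Summed FPKM of the histone genes of each class and kind in each library (points, log axis, controls left and knockouts right within a class), with the mean of 3 libraries as a line. The clustered H1 sum lies at 6.07 to 6.74 FPKM in the controls and at 179.5 to 205.3 in the knockouts, and the replacement H2A sum is the 1 class sum that is lower in the knockouts.

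By class, the clustered H1 sum differed by 30.9-fold, the H2B sum by 13.8-fold, the H4 sum by 4.25-fold, the H3 sum by 2.32-fold and the H2A sum by 1.93-fold. No class of clustered genes had overlapping groups. H2B became the largest clustered class, at 554 ± 26.1 FPKM (SD, n = 3) in the knockout against 40.3 ± 5.29 (SD, n = 3) in the control, where H2A stood at 49.5 ± 5.72 (SD, n = 3). Hist1h2bc and Hist1h1c together made up 10.1% ± 1.15 (SD, n = 3) of the clustered sum in the control and 55.2% ± 4.57 (SD, n = 3) in the knockout. Without Hist1h2bc the clustered sum differed by 4.1-fold, and without Hist1h2bc, Hist1h1c, Hist1h4i and Hist3h2ba, an omission chosen after their values were seen, by 2.77-fold.

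Of the 65 clustered genes 50 were tested, and 39 were called higher, 0 lower and 11 in neither direction. The shares over all tested genes were 36.7% higher and 22.5% lower. In 38 of the 39 called higher every knockout library lay above every control, which held in 41.3% of all tested genes. The exception was Hist1h2ab, at 3.48, 0.63 and 0.44 FPKM against 6.89, 3.55 and 3.43, and Hist1h2ai had separate groups without being called. At an unadjusted limma p under 0.05 the count of lower genes was also 0. The median fold change was 1.28. 10 of the 50 had no control library at 1 FPKM and so passed the filter through the knockout alone. Of the 28 whose 3 controls all reached 1 FPKM, 19 were called higher, against 34% of all genes with that property. The median fold change of these 28 was 1.07. 15 clustered genes were not tested, of which 3 were at 0 in all libraries.

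**Figure D2:**
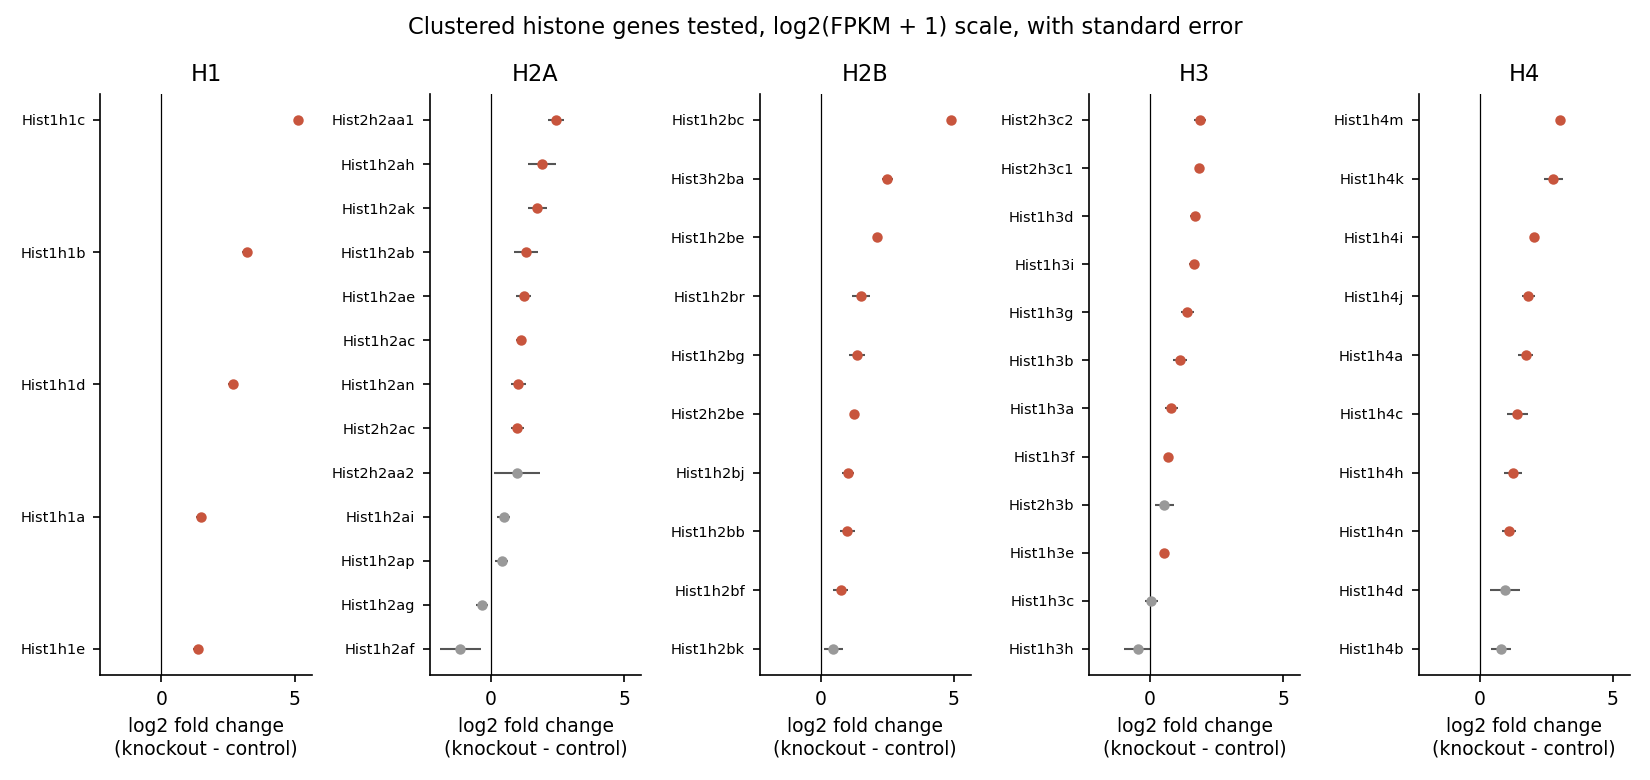
Log2 fold change (knockout minus control) of each tested clustered gene by class, with its standard error; red points were called higher and grey points were not called. Hist1h1c and Hist1h2bc stand apart at 5.12 and 4.91, and the grey points include all 3 genes below 0.

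Linker histones of the H1 class bind where DNA enters and leaves the nucleosome and compact the fibre. Hist1h1c, for the somatic subtype H1.2, was at 4.64, 4.18 and 2.99 FPKM in the control libraries and at 146.9, 182.8 and 177.8 in the knockout libraries. The fold change was 5.12 (limma adjusted p = 1.33e-05, SE 0.15). No other fold change was as large among the clustered genes tested. The gene lies at chr13:23738808-23740367 on the plus strand, in 1 exon. Its estimated fragment numbers were 104 to 172 in the control and 5176 to 6511 in the knockout, so counting error is small beside the difference.

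Hist1h1b (H1.5) was at 0.22, 0.11 and 0.5 FPKM against 13.5, 9.13 and 9.93, with a fold change of 3.21. Hist1h1d (H1.3) was at 0.75, 0.46 and 0.47 against 11.2, 6.98 and 8.94, with 2.67. Hist1h1a (H1.1) and Hist1h1e (H1.4) differed by 1.47 and 1.35. All 5 tested H1 genes were called higher, beside 36.7% of all tested genes. Their groups did not overlap, beside 41.3% of all tested genes with the knockout above. However, 3 of the 5 had no control at 1 FPKM. Of these, Hist1h1b rests on an estimated 1.3 to 6.4 fragments per control library. Hist1h1d, whose annotated transcript is 7425 bases long, has low FPKM but an estimated 83.9 to 153.6 fragments per control library. Exons of Hist1h2be on the same strand cover 25.7% of Hist1h1e, and reads there cannot be told apart. Hist1h1t, the H1 of spermatocytes, stayed under 0.5 FPKM in all 6 libraries and was not tested. The share of Hist1h1c in the clustered H1 sum was 61.8% ± 12.3 (SD, n = 3) in the control and 86% ± 3.72 (SD, n = 3) in the knockout, and without it the sum still differed by 11.2-fold. These shares are of FPKM, so they depend on the length given to each gene.

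H2B genes showed the same concentration in 1 member. Hist1h2bc was at 15.8, 16.6 and 10.4 FPKM in the control libraries and at 452.9, 449.1 and 448 in the knockout libraries, a fold change of 4.91 (limma adjusted p = 1.38e-05, SE 0.16). The 3 knockout values were nearly equal, and the estimated fragments were 248.7 to 401.9 against 10664.5 to 10969.5. Its share of the clustered H2B sum was 35% ± 4.05 (SD, n = 3) in the control and 81.3% ± 3.28 (SD, n = 3) in the knockout. The other 15 H2B genes together were at 26.1 ± 1.93 FPKM (SD, n = 3) against 104.4 ± 23.5 (SD, n = 3).

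Hist3h2ba, an H2B gene of the small Hist3 locus, was at 10.8, 8.67 and 6.92 FPKM against 68.7, 52.9 and 42.3, a fold change of 2.50 (limma adjusted p = 0.000137, SE 0.21). Its neighbour Hist3h2a was listed at 0 in all control libraries and at 0.27 to 0.73 in the knockout, and Trim17, whose exons cover 33% of Hist3h2a on the same strand, had a mean of 3.71 FPKM against 84.7. Hist1h2be differed by 2.14 from control values of 0.12 to 0.34 FPKM. Of 10 tested H2B genes 9 were called higher, beside 36.7% of all tested genes. With all controls at 1 FPKM or more it was 5 of 6, beside 34% of all genes with that property. The exception, Hist1h2bk, was at 3.46, 5.47 and 4.54 against 12.8, 4.8 and 4.4, where knockout replicate 1 alone was high. Hist1h2ba, the H2B of testis, and Hist1h2aa, its H2A partner, were at 0 in all 6 libraries.

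H2A had the smallest ratio of sums of the clustered classes. Of 13 tested genes 8 were called higher, beside 36.7% of all tested genes. The count of 8 became 4 without control replicate 3 and 6 or 7 without any other single library. Of the 5 H2A genes with all controls at 1 FPKM or more 2 were called higher, beside 34% of all genes with that property. Another 3 of the 13 had no control at 1 FPKM and passed the filter through the knockout alone. Hist1h2ap had the highest mean of the clustered H2A genes in both groups, 18.6, 21.8 and 13.2 FPKM against 29.2, 17.6 and 24.8. Those groups overlapped, and the fold change of 0.39 (SE 0.23) was not called. Hist1h2ag was at 8.58, 11.6 and 8.09 against 9.3, 7.65 and 5.12 and Hist1h2af at 5.98, 6.7 and 10.1 against 8.57, 0 and 4.56, both not called. Hist2h2aa1 had the largest H2A fold change, 2.45, from 1.48, 4.02 and 2.66 FPKM to 14.8, 26 and 16.5. Gm20634 covers 90.3% of its exon on the same strand, and 88.9% of its 75-base stretches occur in other genes, so its share of the reads is uncertain. Hist1h2ah, the next largest at 1.92, came from uneven control values of 3.9, 0.56 and 0 FPKM.

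H3 genes encode the tail residues that carry many chromatin marks, and 9 of 12 were called higher, beside 36.7% of all tested genes. With all controls at 1 FPKM or more it was 6 of 9, beside 34% of all genes with that property. Hist1h3d was at 5.38, 4.35 and 7.31 FPKM against 23.4, 17.6 and 19.3, a fold change of 1.68 (limma adjusted p = 0.000407, SE 0.19). Hist1h3g was at 6.97, 8.06 and 4.08 against 14.4, 20.6 and 19.2, with 1.40. Neither had overlapping groups. Hist1h3c, the clustered H3 gene with the highest mean in the control, was at 6.57, 11.4 and 7.92 against 8.39, 6.69 and 11.8 (fold change 0.05) and did not pass the test. The largest fold changes were 1.87 for Hist2h3c2 and 1.85 for Hist2h3c1, whose exons lie entirely within Gm20634 on the same strand. Hist1h3h, at −0.47, and Hist2h3b, at 0.54, were not called.

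H4 genes, which all encode the core partner of H3, had 8 of 10 tested members called higher, beside 36.7% of all tested genes. With all controls at 1 FPKM or more it was 5 of 7, beside 34% of all genes with that property. Hist1h4i was at 18.7, 18.9 and 18.7 FPKM in the control libraries and at 96.5, 80.3 and 68.5 in the knockout libraries, a fold change of 2.05 (limma adjusted p = 5.56e-05, SE 0.13). Its controls were nearly equal and its knockouts spread, with replicate 1 highest. Hist1h4m was at 2.39, 2.25 and 2.24 against 24.4, 26.9 and 25.6, a fold change of 3.01 (limma adjusted p = 1.38e-05, SE 0.10). The estimated fragments behind it were 7.4 to 9.5 against 86.7 to 96.4, and 89% of its 75-base stretches also occur in other genes. Hist1h4k was at 1.73, 3.19 and 0.58 against 20.7, 17.8 and 12.7, with 2.76. Hist1h4d (0.96) and Hist1h4b (0.81) had overlapping groups and were not called, and Hist1h4f was not tested because 2 knockout libraries alone, at 10.1 and 4.72 FPKM, passed 1 FPKM.

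The replacement genes moved in both directions. Of 15 genes 10 were tested: 3 were called higher and 5 lower, beside 36.7% and 22.5% of all tested genes, and 2 were not called. All 10 had every control at 1 FPKM or more. In the 8 called genes the groups did not overlap, beside 41.3% (knockout above) and 25.5% (knockout below) of all tested genes. Of the 5 not tested, H1fnt, H2afb1, H2afb2 and H2afb3 were at 0 in all libraries and H1foo, the oocyte linker histone, reached 0.09 FPKM at most.

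**Figure D3:**
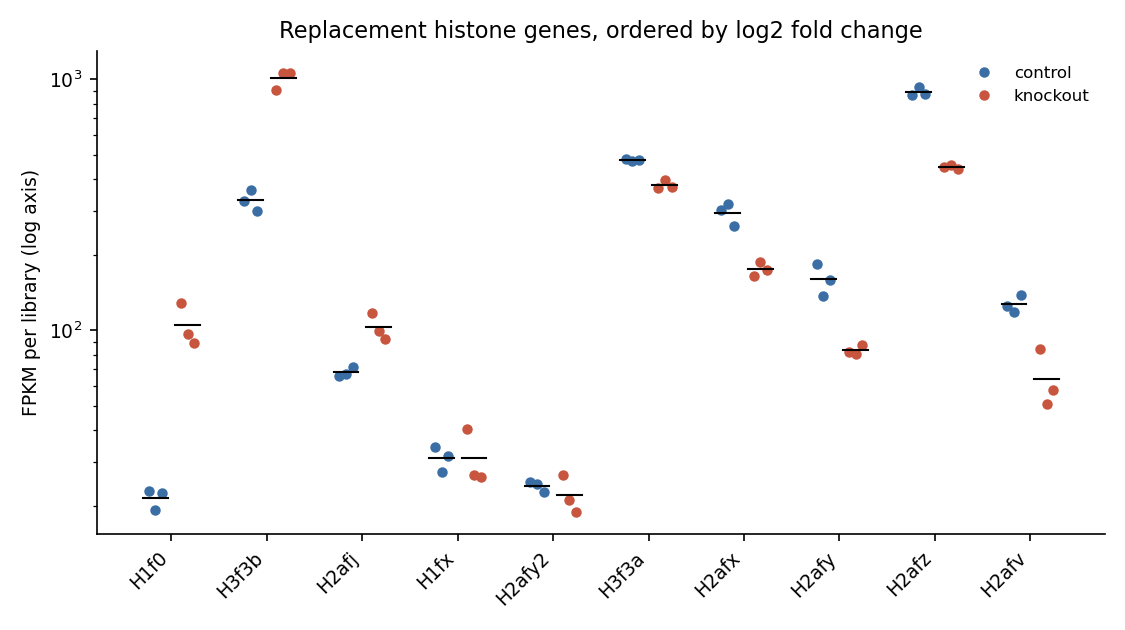
FPKM of each tested replacement gene in each library (points, log axis, controls left and knockouts right), with the mean of 3 libraries as a line, ordered by fold change. H3f3b passes H3f3a, and H2afz, H2afx, H2afy and H2afv are lower in every knockout library than in any control.

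H1f0 encodes H1.0, the linker histone known from differentiated and resting cells. It was at 22.9, 19.2 and 22.6 FPKM in the control libraries and at 128, 96.5 and 89.5 in the knockout libraries, a fold change of 2.21 (limma adjusted p = 6.57e-05, SE 0.15). H1fx, which encodes H1.10, was at 34.4, 27.3 and 31.6 against 40.6, 26.5 and 26.1 (fold change −0.03, SE 0.18), with overlapping groups. H1f0 was thus under H1fx in every control library and over it in every knockout library.

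H2A.Z is placed at promoters by dedicated remodellers and is encoded by H2afz and H2afv. H2afz, which had the highest FPKM of the histone genes in the control, was at 862.6, 927.4 and 875.1 FPKM there. In the knockout it was at 448.6, 455.4 and 438.1, a fold change of −0.99 (limma adjusted p = 7.13e-05, SE 0.07). H2afv was at 125.1, 118.6 and 138.3 against 84.2, 50.7 and 58, a fold change of −1.01 (limma adjusted p = 0.00301, SE 0.18). The share of H2afv in the sum of both was 12.6% ± 1.16 (SD, n = 3) in the control and 12.5% ± 2.97 (SD, n = 3) in the knockout, so the proportion of the genes differed by less than its spread. H2afx, for the H2A.X that is phosphorylated at DNA breaks, was at 301.1, 317.8 and 261.6 against 165, 187.1 and 174.6, a fold change of −0.74 (limma adjusted p = 0.000722, SE 0.10). H2afx is the replacement gene with a stem-loop, and its difference is opposite in sign to all 39 called clustered genes.

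H2afy, for macroH2A1, was at 183.3, 136.5 and 158.8 FPKM against 81.8, 80.7 and 87.6, a fold change of −0.92 (limma adjusted p = 0.000603, SE 0.11). Its relative H2afy2, for macroH2A2, was at 24.9, 24.4 and 22.7 against 26.5, 21.2 and 18.9 (−0.12, SE 0.13) with overlapping groups. H2afj, which encodes H2A.J, was the H2A replacement gene that was higher: 65.9, 67.1 and 71.7 against 117, 99.8 and 92.2, a fold change of 0.58 (limma adjusted p = 0.0026, SE 0.10). Together the H2A replacement genes were at 1561 ± 31.8 FPKM (SD, n = 3) in the control and 896 ± 26.7 (SD, n = 3) in the knockout.

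H3.3 is encoded by H3f3a and H3f3b, which give the same protein. H3f3b was at 326.6, 361.6 and 299.7 FPKM in the control libraries and at 908.6, 1055 and 1062 in the knockout libraries, a fold change of 1.61 (limma adjusted p = 5.74e-05, SE 0.10). H3f3a was at 483.4, 471 and 479.2 against 369.3, 398.4 and 371.2, a fold change of −0.33 (limma adjusted p = 0.00476, SE 0.07). With all libraries set to the same total FPKM the value of H3f3a was −0.17 and was not called (limma adjusted p = 0.0684), and its limma adjusted p over all alternatives ranged from 0.000744 to 0.0684. Antisense exons of Gm17275 cover 18.2% of H3f3a, and whether strand was used in counting is not given in the sources used here. The share of H3f3b in the H3.3 sum was 40.3, 43.4 and 38.5% in the control libraries and 71.1, 72.6 and 74.1% in the knockout libraries. H3f3b was thus the lower of the H3.3 genes in every control and the higher in every knockout, and the sum of both was 807 ± 27 FPKM (SD, n = 3) against 1388 ± 95.9 (SD, n = 3). With the rise of H3f3b and the fall of H2afz, the largest histone transcript by FPKM was H2afz in each control library and H3f3b in each knockout library.

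Position in the genome was compared within the clustered genes. The counts and medians here include genes that passed the filter through the knockout alone, such as Hist1h1b in the first subcluster and Hist2h3c1 outside Hist1. The counts stand beside 36.7% of all tested genes called higher. The Hist1 locus on chromosome 13 holds 52 members in 4 subclusters set apart by long gaps. In chr13:21715763-21837530, 9 of 12 tested genes were called higher (median fold change 1.58), in chr13:22035164-22043676 it was 3 of 5 (1.03), and in chr13:23531050-23764406 it was 21 of 25 (1.259). In the fourth, chr13:23933773-23934851, neither Hist1h2aa nor Hist1h2ba was above 0. Outside Hist1, 6 of 8 tested genes were called higher (1.54). Genes called higher and genes not called were therefore neighbours: Hist1h4i (2.05) and Hist1h2ag (−0.33) lie in the same subcluster of 5 genes.

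H2A and H2B genes often lie head to head with a common promoter. There were 12 such divergent pairs, with 176 to 306 bases between their annotated starts. In 6 pairs both genes were tested, and in 3 both were called higher. Hist1h2ac, whose start lies 251 bases from that of Hist1h2bc, was at 1.12, 0.42 and 0.75 FPKM against 2.29, 3.47 and 2.69, a fold change of 1.12 beside the 4.91 of Hist1h2bc. Hist1h2ae and Hist1h2bg differed alike (1.23 and 1.38). Hist2h2ac (0.99) and Hist2h2be (1.24) had mean control levels of 0.51 and 0.22 FPKM and ratios of means of 3.9 and 8.72. Neither had a control at 1 FPKM, so this pair, 1 of the 3, passed the filter through the knockout alone. In the pair of Hist1h2ag (−0.33) and Hist1h2bj (1.03) the H2B gene alone was called, likewise in that of Hist1h2ap (0.39) and Hist1h2br (1.52), and in that of Hist1h2ah (1.92) and Hist1h2bk (0.48) the H2A gene alone. The difference within a pair was not tested.

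**Figure D4:**
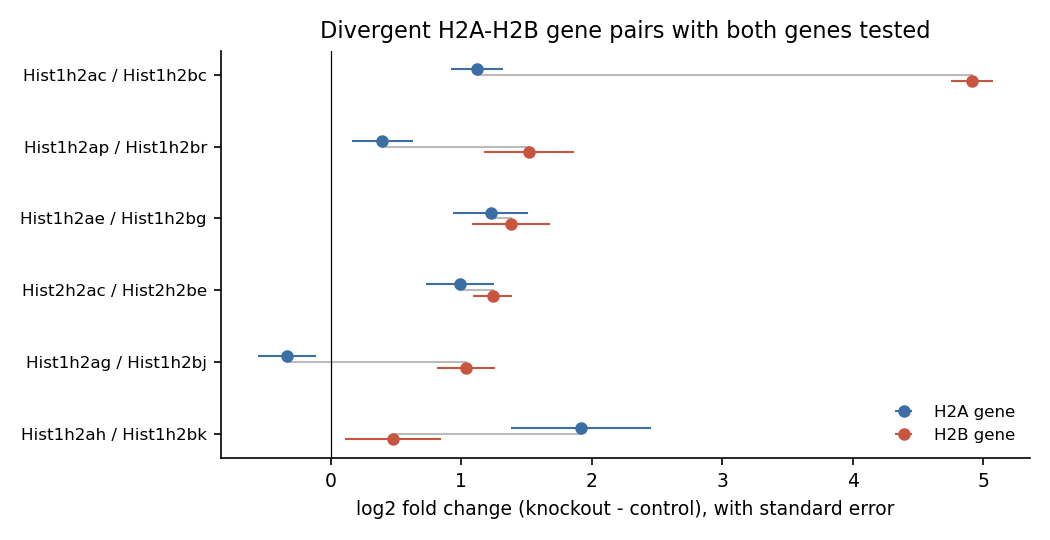
Log2 fold change (knockout minus control, with its standard error) of the H2A gene and the H2B gene of each divergent pair with both genes tested. Hist1h2ac and Hist1h2bc, at 1.12 and 4.91, are the pair that lies farthest apart.

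The annotated transcript ends were then set beside the fold changes, with splits chosen after the values were seen. Since 10 tested genes passed the filter through the knockout alone, each count is followed by the count over genes with all controls at 1 FPKM or more. Over all genes the shares called higher were 36.7% of those tested and 34% of those with that property. The medians still include the 10 genes: 4 with at least 100 bases after the stem-loop, 1 with fewer and 5 with no stem-loop. By length 7 of them had 700 bases or more and 3 were shorter. Of 18 tested genes whose longest transcript runs at least 100 bases past the stem-loop, 17 were called higher, with a median of 1.70 (9 of 10 with all controls at 1 FPKM). Of 18 with under 100 bases after it 12 were called higher, with a median of 1.00 (9 of 14). Of 14 with no stem-loop in the annotated transcript 10 were called higher, with a median of 1.49 (1 of 4). A poly(A) signal (AATAAA or its commonest variant) lay in the last 50 bases of an annotated transcript in 11 tested genes, all called higher with a median of 1.83, of which 4 had no control at 1 FPKM (5 of 5 with all controls at 1 FPKM). Without one it was 28 of 39 and a median of 1.10 (14 of 23). For annotated exonic length, 19 of 20 genes with 700 bases or more were called higher (median 1.60; 8 of 9 with all controls at 1 FPKM) and 20 of 30 shorter genes (median 1.03; 11 of 19). These properties overlap with one another and with precision: 24 of 27 genes with under 50% of their 75-base stretches shared with other genes were called higher (median 1.40; 12 of 15), and 15 of 23 with 50% or more (median 1.03; 7 of 13). Which of them goes with the fold change was not tested.

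**Figure D5:**
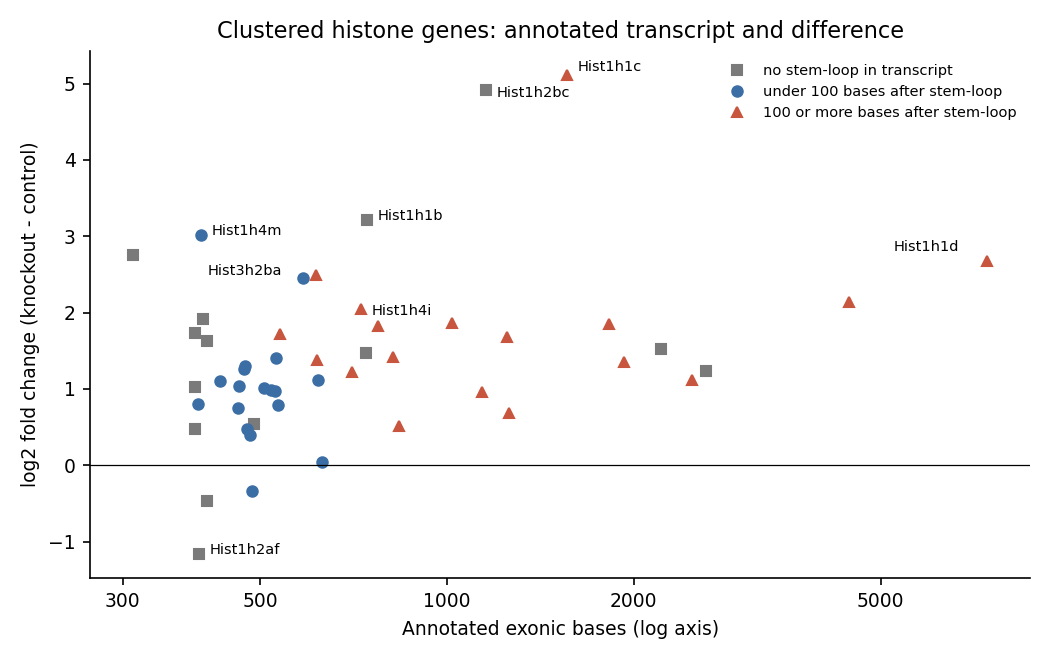
Log2 fold change (knockout minus control) of each tested clustered gene against its annotated exonic length in bases (log axis), with symbols for the transcript end. Hist1h1c and Hist1h2bc lie above the rest at 1560 and 1156 bases, and genes near or below 0 are under 700 bases long.

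RNAs without a poly(A) tail other than histone mRNA were compared as well, since the labels name a library kit but not whether poly(A) RNA was selected. Over 14 such RNAs (among them Rn7sk, Rmrp and Terc), 6 of them at 0 in all libraries, the summed level was 696.5, 139.1 and 156.4 FPKM in the control libraries and 184.9, 76.9 and 417.9 in the knockout libraries. These sums overlapped between the groups. Their part in the histone results was not tested.

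Genes of 3 related pathways were compared from lists. For transcription and 3′ end processing of histone mRNA, 18 genes were tested: 6 were called higher and 4 lower, near the 36.7% and 22.5% of all genes, with a median of 0.22. Under median-ratio or upper-quartile scaling, or without control replicate 2, 3 were called higher. Slbp, which binds the stem-loop, had a mean of 56 FPKM in the control and 58.7 in the knockout (fold change 0.04, limma adjusted p = 0.831), and Npat, the transcriptional coactivator of clustered histone genes, had 4.37 and 6.34 (0.41, limma adjusted p = 0.167). The cleavage factor subunits differed in direction, with Cpsf2 at 0.75 and Cpsf3, the endonuclease, at −0.69. Srrt, a partner of the cap-binding complex, was at −0.39.

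Of 37 histone chaperone and exchange genes 11 were called higher and 12 lower, Rbbp4 among the latter, with a median of 0.01, beside 36.7% and 22.5% of all genes. The balance turned with the scaling: median-ratio scaling gave 6 higher and 15 lower, and equal FPKM sums 15 higher and 6 lower. Dnajc9, a chaperone of H3 and H4, was at 1.17 and Supt6, an elongation factor that holds H3 and H4, at 0.85. Anp32e, which removes H2A.Z, was at −1.02. Rbbp7, the paralog of Rbbp4, was at 0.44.

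Of 31 genes of DNA replication and S phase 0 were called higher by limma (0 also at an unadjusted p under 0.05) and 19 lower, with a median of −0.48. The shares over all tested genes were 36.7% higher and 22.5% lower. Uhrf1, which keeps DNA methylation through replication, was at −1.12, Cdc6, which loads the helicase, at −1.03, and Rrm2, a subunit of ribonucleotide reductase, at −0.96. With libraries rescaled to equal FPKM sums 2 of the 31 were called higher. Of the clustered histone genes, which are normally transcribed in S phase, 0 of the 28 with all controls at 1 FPKM or more were called lower and 19 higher. Among all genes with that property 34% were called higher.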

How the data were processed

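RNA from 3 control and 3 knockout libraries was extracted with Trizol and built into libraries with a TruSeq kit, per the labels' protocols. Tools listed in the submitters' processing notes, with no role given, are RSEM, HISAT2 2.1.0, DESeq 1.26.0 and FastQC, on GRCm38.p6. The FPKM values deposited by the authors were made upstream by steps that are not given in more detail in the sources used here, and the unit was inferred from the values, since the files have no header. Of 52872 rows per file, 2 name no gene and were left out; of 51912 Ensembl rows 51719 matched GENCODE M21. Depth was estimated from the steps between low values: effective lengths 265 to 275 bases under transcript length made 80.4 to 83.8% of low values whole to within 0.15 fragments, with an assumed fragment-length SD of 80 bases.

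limma 3.58.1 in R 4.3.3 was fitted on log2(FPKM + 1) with group as the only term and a mean trend, two-sided, for genes at 1 FPKM or more in at least 3 libraries, and was tested on simulated data. Libraries with the same replicate number did not deviate together (correlations −0.001, −0.009 and 0.049), so the numbers do not pair them. Named are every tested replacement gene, in each clustered class the 3 highest by level, the 2 largest and 2 smallest fold changes, the testis genes, and up to 3 called genes per list; Slbp, Npat, members described by their divergent pairs, overlaps or transcript ends, and others of the clustered classes were added after their values were seen. Members, lists and splits were chosen with earlier results of these data known. Alternatives were 3 scalings, a pseudocount of 0.1, no filter, a replicate block and leaving out each library.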

Additional observations from a re-analysis of the deposited data

How the results depend on the processing

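Between 32 and 39 clustered genes were called higher, and 0 lower, under each scaling, the pseudocount of 0.1, no filter, the replicate block (39 called higher) and each library left out, and no tested member called in the main comparison changed direction. The median fold change of the tested clustered genes was 1.283 in the main comparison and 1.825 with the pseudocount of 0.1. With a library left out the H2A count ranged from 4 to 7, the processing list from 3 to 7 higher and 2 to 4 lower, the chaperone list from 7 to 14 lower, and the S phase list from 0 to 1 higher. Median-ratio scaling gave 3 processing and 6 chaperone genes higher, and upper-quartile scaling 3 processing genes higher. Equal FPKM sums gave 2 processing and 6 chaperone genes lower, 2 S phase genes higher and 0 replacement H3 genes lower.

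The log2 ratio of summed FPKM, under median-ratio, upper-quartile and equal-sum scaling, was 2.46, 2.49 and 2.81 for clustered genes, 4.75, 4.79 and 5.11 for clustered H1, 3.59, 3.62 and 3.94 for clustered H2B, and 1.02, 1.05 and 1.37 for clustered H3. It was −0.19, −0.16 and 0.16 for replacement genes, −0.99, −0.97 and −0.64 for replacement H2A, and 0.59, 0.62 and 0.94 for replacement H3. For clustered H2A it was 0.75 under median-ratio scaling.

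Chosen after seeing the data, genes with under 50% shared stretches gave 24 of 27 higher, and those with all controls at 1 FPKM 19 of 28, both from fewer genes. The clustered sum had a log2 ratio of 2.03 without Hist1h2bc, 1.47 without 4 genes, and 3.49 in estimated fragments relative to library size, over the 60 genes with 1 annotated transcript. Tests for whole-number counts were not run, since the files hold FPKM. Depth limits the short clustered genes most.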
